A study of Rattus norvegicus with 4 samples.

Results

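Rat fibroblasts with an IPTG-inducible activated Ras were given IPTG in zinc. Gene expression on that array was set against the array of cells kept in zinc alone. The cells were Rat-1·RasValA1, a stable line of rat embryonic fibroblasts in which an IPTG-inducible promoter drives HrasG12V. All cultures, the controls included, carried this allele, and all stood for 24 h in DMEM with bovine serum albumin and no serum. The compared cultures received 5 mM IPTG with 3 µM ZnCl2, or 3 µM ZnCl2 alone. The other pair of the study received 5 mM IPTG without zinc, or no addition. Each condition was measured on 1 array of 4, so every difference below is a size with no replicate check and no p-value. Cells lacking the inducible allele were not analysed here, so IPTG itself and induced Ras cannot be told apart.

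Members were the gene probes with a deposited value of 25 or more on at least 1 of the 2 arrays with zinc. They numbered 7359 of 20174 gene probes, each of which carries its own Ensembl rat gene identifier and has a single spot on the array. The deposited value is spot brightness above the level of empty spots, scaled so that the median listed probe reads 25 on each array. Of the members, 6393 reached 25 on both arrays, 634 only with IPTG and zinc, and 332 only with zinc alone. Among the 410 probes whose higher value lay between 25 and 30, 22 were higher (5.37%) and 37 lower (9.02%) by the rule given below. Just outside, among 482 probes between 20 and 25, these counts were 29 (6.02%) and 31 (6.43%). Over all members the shares were 7.5% and 5.01%.

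Ras is a small GTPase that relays growth factor signals to the RAF, MEK and ERK kinases and so to transcription. The G12V form hydrolyses GTP poorly and stays active without a growth factor, and it transforms Rat-1 fibroblasts. Zinc ions are a cofactor of many enzymes and transcription factors, and cells buffer them with metallothioneins and zinc transporters. Which gene functions changed could not be read from these probes, because no table used here pairs their identifiers with symbols (0 of 20174 matched). Hras, metallothioneins, fibroblast markers and the gene lists of ERK feedback, matrix, cell cycle or glycolysis genes were therefore not analysed. The results concern how many genes differed with IPTG in the presence of zinc, by how much, and whether they were the genes that differed without zinc.

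With zinc present, cells given IPTG still differed widely from cells without it. A probe was called higher or lower where the deposited values differed at least 2-fold and it also lay at least 2-fold from the median ratio of all members. By this rule 552 of 7359 probes were higher with IPTG and zinc (7.5%) and 369 were lower (5.01%) than with zinc alone. The second condition was needed because the array as a whole was shifted. The median member read 1.24 times as high with IPTG and zinc (log2 0.30), and 70.9% of members lay above a ratio of 1. The excess of higher over lower calls depended on this shift: taken relative to the median probe alone, 552 were higher and 608 lower. The scanner values after quantile normalization gave 303 higher and 325 lower with the blank background, 461 and 541 with normexp, and 259 and 278 uncorrected. Positive control spots, 24 per sequence and array, were shifted too, 1.19-fold for the first sequence and 1.44-fold for the second. Their SD of log2 signal within an array was 0.13 and 0.07 (IPTG and zinc, then zinc alone) for the first and 0.19 and 0.17 for the second. Folds below are ratios of the deposited values, and a fold of 1.24 is therefore the level of the median probe.

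The spread of these ratios far exceeded that between the arrays that differed only in zinc. The SD of the log2 ratio was 0.89 for IPTG with zinc over zinc alone. For zinc alone over no addition it was 0.29, over 6983 probes chosen by the same level. In that comparison 10 probes were higher (0.143%) and 4 lower (0.0573%), a background that holds any effect of zinc as well as differences between arrays. For IPTG alone over no addition, the SD was 1.08, with 944 of 7735 probes higher (12.2%) and 660 lower (8.53%). The middle 50% of members spanned 0.79 log2 units with zinc and 1.06 without it.

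**Figure D1:**
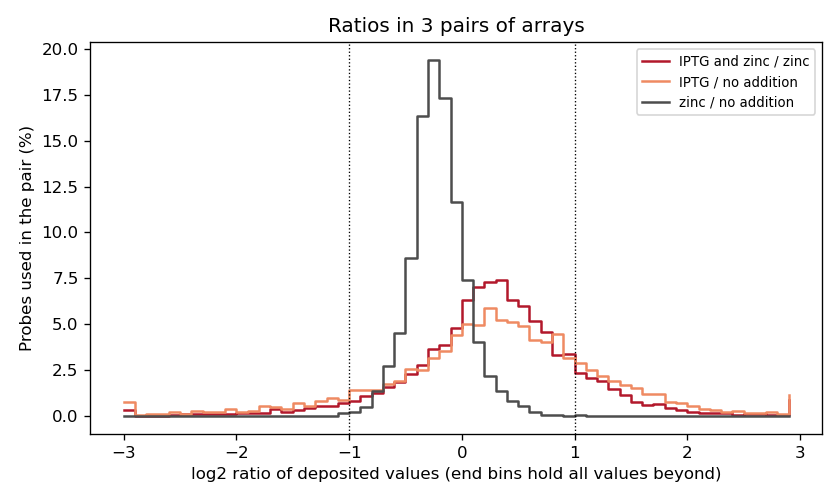
Distribution of log2 ratios of deposited values (x axis) as a percentage of the probes used in each pair (y axis), with dotted lines at 2-fold; the end bins hold all values beyond. The curve of IPTG with zinc over zinc alone is narrower (SD 0.89) than that of IPTG over no addition (SD 1.08) and wider than that of zinc over no addition (SD 0.29).

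Most of the called differences with zinc were moderate, and a small group was very large. Of the 552 higher probes, 395 (71.6%) were 2- to 4-fold higher, 96 were 4- to 8-fold, 26 were 8- to 16-fold and 35 at least 16-fold. Of the 369 lower probes, 284 (77.0%) lay between 2- and 4-fold, 60 between 4- and 8-fold, 11 between 8- and 16-fold and 14 beyond. The median called probe was 3.19-fold higher or 2.71-fold lower. The upper tail was the longer one. The 20 largest increases ran from 39.4-fold to 2847-fold, and the 20 largest decreases from 12.3-fold to 50.7-fold, with some of them bounds.

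Many of the largest ratios divide by a value close to the empty spots. Among the 20 largest increases, 10 probes were not listed with zinc alone. They were taken there at that array's lowest listed value, 0.779, which makes their ratios bounds of at least 41.7-fold to at least 747-fold. Their values with IPTG and zinc ran from 32.5 to 582. Conversely, 2 lower probes were not listed with IPTG and zinc, and were at least 30.6-fold and 50.7-fold lower. A probe that reached 25 on only 1 array had to differ to some degree in that direction, so its call is partly fixed by the filter. Of the 634 that reached it only with IPTG and zinc, 198 were called higher, and of the 332 that reached it only with zinc alone, 177 were called lower. Among the 6393 that reached 25 on both arrays, 354 were higher (5.54%) and 192 lower (3%).

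**Figure D2:**
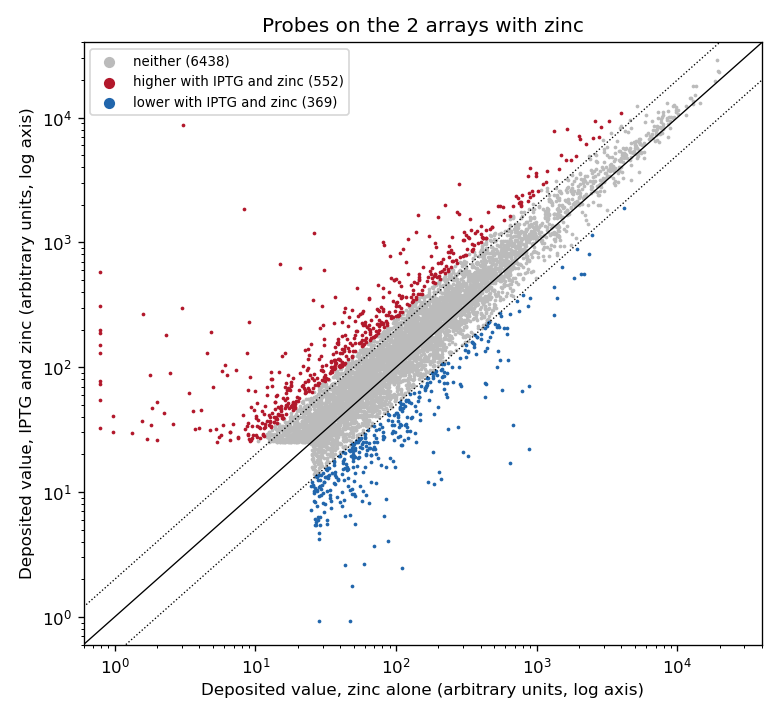
Each point is 1 of 7359 probes, with its deposited value with IPTG and zinc (y axis) and with zinc alone (x axis), in arbitrary units on log axes; the solid line marks equal values and dotted lines 2-fold. The 552 probes called higher are red and the 369 called lower are blue; probes not listed on an array stand at its lowest listed value.

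The probe with the largest measured increase was ENSRNOG00000032832. It read 8678 with IPTG and zinc, against 3.05 with zinc alone, and 5501 with IPTG alone, against 5.22 with no addition. The probe was picked for its ratio with zinc, so a wide gap in that pair was fixed by the choice. Without zinc the gap was not part of the choice, and the low value was again near the level of empty spots. The ratio was 2847-fold with zinc and 1054-fold without it. Because the low value is so close to the empty spots, the ratio depends on how they are treated. Adding 50 to each spot after subtracting the blank mean, followed by quantile normalization, gave 311-fold with zinc. The deposited value also leaves the local background in. With IPTG and zinc this was 10933 scanner units around a spot of 18922, and with zinc alone 64.2 around a spot of 73.5. The normexp correction with local background gave 125-fold.

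ENSRNOG00000032626 was next among probes listed on both arrays. Its values were 1866 with IPTG and zinc, against 8.27 with zinc alone, and 1438 with IPTG alone, against 8.36 with no addition. The ratio was 226-fold with zinc, for which the probe was picked, and 172-fold without. With the added 50 and quantile normalization, the ratio with zinc was 53.3-fold.

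ENSRNOG00000029911 had the largest decrease measured on both arrays. It read 2.46 with IPTG and zinc, against 110 with zinc alone, and 3.28 with IPTG alone, against 144 with no addition. The decrease was 44.8-fold with zinc and 43.9-fold without it, and the low values again lay near the empty spots. The added 50 with quantile normalization reduced it to 5.90-fold with zinc.

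ENSRNOG00000003515 was 39.98-fold lower with zinc and 4.61-fold lower without it. Its values were 22.0 with IPTG and zinc, against 879 with zinc alone, and 254 with IPTG alone, against 1168 with no addition. Both arrays without IPTG were high, and the one with IPTG and zinc was the lowest of the 4. In this case the added 50 changed less, giving 25.1-fold with zinc. The probe was picked for its ratio with zinc, and with 1 array per condition the unequal size in the 2 pairs was not tested.

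Among probes used in both pairs, most of the large differences with zinc were also called without zinc. Left out here are 22 probes called higher and 7 called lower with zinc that did not reach 25 on either array without it. The 2 pairs share no array, and 7255 probes reached 25 in both. Of the 530 of these called higher with zinc, 347 (65.5%) were called higher without zinc, against 10.9% of all 7255. Of the 362 called lower with zinc, 227 (62.7%) were called lower without zinc, against 8.64% of all. All 23 probes that were 8- to 16-fold higher with zinc and all 34 that were at least 16-fold higher were called higher without it. For the lower probes these shares were 11 of 11 and 13 of 14. The shares of the higher probes are partly fixed by the filter. Among the 20 largest increases, the median listed value with zinc alone was 3.02. A probe as dim with no addition could reach 25 without zinc only through the array with IPTG alone. For such probes the 10.9% of all 7255 is not a like background. In the class of 2- to 4-fold, 213 of 383 higher probes (55.6%) and 157 of 278 lower probes (56.5%) were called without zinc. A shift common to both IPTG arrays that varied with signal level or position would also recur in this way, and its part was not tested.

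Seen from the other pair, the response without zinc was only partly called with zinc. Of 791 probes called higher with IPTG alone, 347 (43.9%) were called higher with IPTG and zinc, against 7.31% of all 7255. Of 627 called lower, 227 (36.2%) were called lower, against 4.99% of all. Relative to the median probe, 720 of the 791 (91.0%) lay on the higher side with zinc, against 49.6% of all 7255. On the lower side lay 532 of the 627 (84.8%), against 50.4% of all. The median of the 791 with zinc was 2.26-fold higher (log2 1.18). That of the 627 was at a log2 ratio of -0.58, against 0.30 for all 7255.

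The share called again was higher where the difference without zinc was larger. Of the probes 2- to 4-fold higher with IPTG alone, 180 of 563 (32.0%) were called higher with zinc. This was 106 of 159 (66.7%) for 4- to 8-fold, 25 of 32 (78.1%) for 8- to 16-fold and 36 of 37 (97.3%) beyond. For lower probes the same classes gave 133 of 444 (30%), 62 of 132 (47.0%), 17 of 32 (53.1%) and 15 of 19 (78.9%). Among the probes at least 16-fold higher without zinc, the median was at least 41.7-fold higher with zinc. It is a bound, because the median probe was not listed with zinc alone. Probes picked for a difference on 1 pair of arrays tend to differ less on the other pair whatever the treatment. These shares alone therefore do not measure an effect of zinc. For higher probes that were dim without IPTG, the filter also partly fixes the call with zinc.

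**Figure D3:**
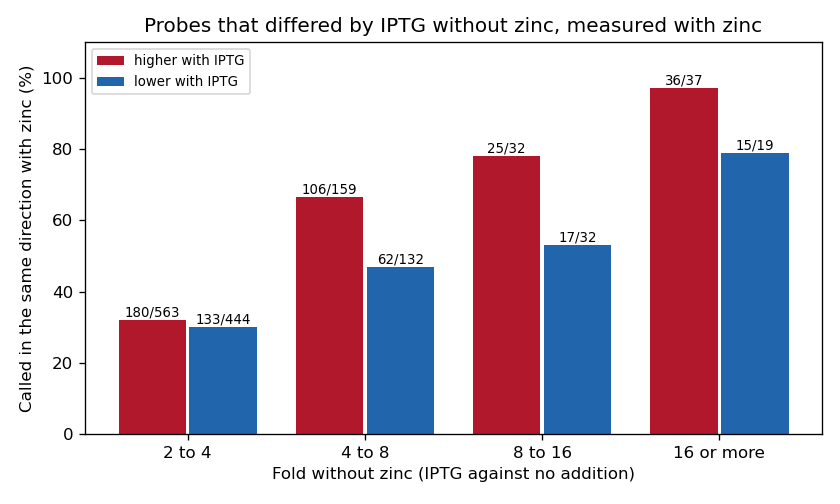
Percentage of probes called with zinc in the same direction (y axis) by their fold without zinc (x axis), for probes higher (red) and lower (blue) with IPTG alone; numbers above the bars are probes called over probes in the class. The share ran from 32.0% to 97.3% for higher probes and from 30% to 78.9% for lower probes.

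The 347 probes called higher in both pairs had medians of 3.42-fold with zinc and 3.92-fold without it. Relative to each pair's median probe, the difference was larger with zinc for 153 of them (44.1%). The 227 called lower in both had median log2 ratios of -1.62 with zinc and -1.81 without, and for 86 (37.9%) the difference was larger with zinc. Of the probes called with zinc, 93 higher (17.5%) and 48 lower (13.3%) lay within 1.5-fold of the median probe without zinc, against 55.1% of all 7255. In the opposite case, 253 probes higher (32.0%) and 226 lower (36.0%) with IPTG alone lay within 1.5-fold of the median with zinc, against 65.1% of all. Whether any of these differ between the pairs was not tested.

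**Figure D4:**
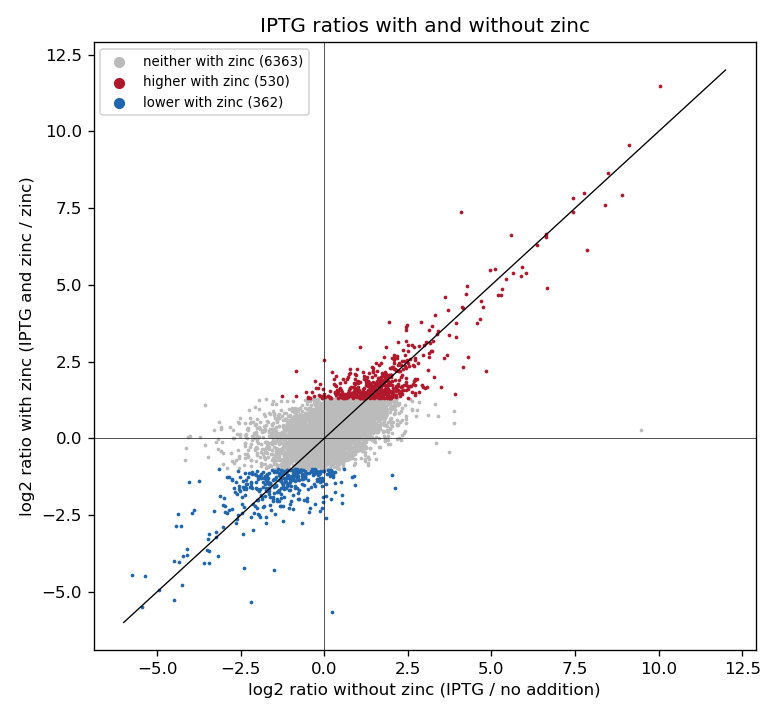
Each point is 1 of the 7255 probes used in both pairs, with its log2 ratio with zinc (y axis) and without zinc (x axis); the line marks equal ratios. Of the probes called higher with zinc (red, 530), 497 lay above the median ratio of the pair without zinc, against 48.2% of all 7255. Of those called lower (blue, 362), 353 lay below that median, against 51.7% of all.

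Among the probes used in both pairs, a few very large differences were called in 1 pair alone, and each rested on the value of 1 array. Of the 7255 probes, only 1 was at least 16-fold apart with zinc and not called without it. It was not listed with IPTG and zinc and read 47.1 with zinc alone, 62.6 with IPTG alone and 53.6 with no addition. In the opposite case, 5 probes were at least 16-fold apart without zinc and not called with it. In 1 of them the array with no addition did not list the probe, and the other 3 read 827 with IPTG and zinc, 684 with zinc alone and 597 with IPTG alone. In the remaining 4, the array with IPTG alone read 2.40 to 6.45 and the others at least 22.8. Whether a spot failed on these arrays was not tested.

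Called probes occurred at every level of signal. Members were divided into 4 equal classes by the geometric mean of both arrays. The dimmest class, up to 46.5, had 194 probes higher (10.5%) and 186 lower (10.1%). The brightest, from 271 upward, had 137 higher (7.45%) and 32 lower (1.74%). The SD of the log2 ratio was 1.24 in the dimmest and 0.64 in the brightest class. A mean well below 25 can arise here only where the arrays differ, so the wide spread of the dimmest class is partly fixed by the filter.

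Ratios varied with position on the array. The median log2 ratio with zinc ranged from 0.06 to 0.78 over the 24 blocks of spots. It ranged as widely in the other pairs, from -0.16 to 0.82 for IPTG over no addition and from -0.64 to 0.14 for zinc over no addition. In the block with the highest median, 64 of 312 probes were called higher (20.5%), against 488 of 7047 (6.92%) elsewhere. Probes called lower there were 11 (3.53%), against 358 (5.08%) elsewhere. The block was picked by these same ratios, so more higher and fewer lower calls in it are partly fixed by the choice. Empty spots averaged 69.8 scanner units with IPTG and zinc, against 66.5 with zinc alone. They averaged 66.0 on both arrays without zinc. The part of position and of these levels in single calls was not tested.

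With the scanner values in place of the deposited table, part of the calls remained. Subtracting the blank mean, adding 50 and quantile normalizing left 303 of the 552 higher probes (54.9%) and 247 of the 369 lower ones (66.9%) at least 2-fold apart in the same direction. The normexp correction with local background left 217 (39.3%) and 154 (41.7%), and no background correction 259 (46.9%) and 215 (58.3%). With normexp, 6 of the 552 higher probes were at least 2-fold lower instead. No lower probe reversed in this way, and no probe did in the other settings. The calls that held in the deposited table and in all 3 scanner settings numbered 157 higher and 144 lower. Of these, 137 of 156 higher probes (87.8%) and 99 of 144 lower ones (68.8%) that reached 25 without zinc were called in the same direction there. Over all 7255 probes used in both pairs, 10.9% were called higher and 8.64% lower without zinc. As above, the filter partly fixes the call of higher probes that were dim without IPTG.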

How the data were processed

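Total RNA of 4 cultures was amplified, coupled to Cy5 and hybridised, per the labels' protocols. Readings at 3 gains were combined by least squares, per the file headers. The deposited scanner files give spot and local background intensity, unscaled. The authors' deposited table holds a linear intensity; the rescaling is not given in the sources used here. Set against the scanner files, it equals spot intensity minus the mean of the blank spots (5% left out at each end), divided by a factor per array that puts the median listed probe at 25. Probes at or below about the blank mean plus 2 SD are empty.

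Here, log2 ratios were taken for probes at 25 or more on at least 1 array of a pair; an unlisted value was set to that array's lowest listed value. Calls required 2-fold as deposited and 2-fold from the median ratio. Scanner alternatives used limma 3.58.1 in R 4.3.3. The 4 probes named are, per direction, the 2 largest ratios among called probes listed on both arrays and 2-fold apart also with the blank background. Probes, lists and rules were chosen with earlier results of these data known. The 27 gene lists and the promoter search needed gene symbols and were not run. The number of arrays limits precision.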

Additional observations from a re-analysis of the deposited data

Results flagged for a closer look

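Called in opposite directions by IPTG with and without zinc were 3 of 7255 probes, 1 of them higher and 2 lower with zinc; the difference was not tested. The first read 438 with IPTG and zinc, against 1333 with zinc alone, and 4907 with IPTG alone, against 1126 with no addition. The second read 12.6 against 28.7 with zinc, and 106 against 26.4 without it. The third read 210 against 81.7 with zinc, and 51.4 against 124 without it.

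Spots listed as carrying no probe entered no comparison. Of 5273 such spots, 24.0% exceeded the blank mean plus 2 SD with IPTG and zinc, against 16.6% with zinc alone. With IPTG alone this was 17.9%, against 16.8% with no addition.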

How the results depend on the processing

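The counts of called probes depended on scaling, level filter and fold limit. Asking only for 2-fold as deposited gave 1033 higher, which is 73.7% of calls against 59.9% by the rule used; asking only for 2-fold from the median gave 608 lower, and 47.6% higher. In both pairs, 622 were then higher under the first and 376 lower under the second. From the scanner files, the blank background gave 303 higher (48.2% of calls; 192 in both pairs) and no correction gave 259 (48.2%; 167 in both). Normexp gave 46.0% higher, and 229 higher in both pairs. With 25 or more on both arrays, 192 were lower, with 228 higher and 98 lower in both pairs. Without a filter, 1118 were higher and 716 lower, with 570 and 434 in both pairs. A 1.5-fold limit gave 1302 and 735, with 773 and 453 in both pairs. A 3-fold limit gave 184 and 153, with 120 and 91. Subtracting block medians, chosen after seeing the data, gave 589 lower (46.9% higher), with 385 lower in both pairs. Of 48 such alternative counts, 22 stayed within 1.5 times the reported one. These include higher counts relative to the median alone and lower counts as deposited alone, which equal the reported ones by construction. A similar count also need not hold the same probes. With normexp, 217 of the 461 higher and 154 of the 541 lower calls were also called as deposited. The named probes kept their direction in all 24 alternatives. Their choice fixed this in advance for the alternatives on deposited values and for the blank background, so only normexp and no correction could have differed. Their folds ran from 125 to 2847 (ENSRNOG00000032832), 35.9 to 226 (ENSRNOG00000032626), 3.68 to 55.3 (ENSRNOG00000029911) and 18.6 to 49.4 (ENSRNOG00000003515). The gene list alternatives were not run, since no list could be matched. No paired analysis was possible because the groups compared have 1 array each and so share a single replicate number; the pairs of arrays with and without zinc were set side by side and not fitted together.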
